A study of Mus musculus with 2 samples.

Results

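The small leucine-rich proteoglycans are described here through 8 genes, Dcn, Bgn, Aspn, Lum, Fmod, Prelp, Ogn and Podn, taken as a named list from the 56953 genes of the deposited matrix. All 8 were present, and none of them served to define a cell group. The cells were heart cells other than cardiomyocytes, collected 7 days after TAC surgery, in which tightening the aortic arch makes the left ventricle pump against raised pressure. The labels describe the pool as Nts KO mice (4 animals) and control mice (3 animals), all operated; the strain and the Cre driver are not given in the sources used here. The genotype entry of both libraries reads 6 to 8 weeks old and WT, which conflicts with the title, and no cell was tied to a mouse, so KO and control hearts are not compared and every value is an average over the pool. There were no unoperated hearts, so no level here can be set against a heart without overload.

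The library was a 10x 3′ single-cell library of 69993559 UMIs (molecular barcodes that count captured transcript ends) in 9369 barcodes, with 2567 to 42567 UMIs per barcode (median 6663) and a median of 0.733% mitochondrial UMIs. No barcode was listed more than once. After 357 called doublets were left out, 9012 cells were grouped by raw UMIs of marker lists. The fibroblast gate (8 genes, Pdgfra, Tcf21 and Dpt among them) held 4823 cells, or 53.5% of the analysed cells. The other groups used were 1817 macrophages, 595 lymphocytes, 317 monocytes, 136 dendritic cells, 120 endothelial cells with Npr3, 69 lymphatic endothelial cells, 288 other endothelial cells, 46 mural cells, 28 neutrophils and 19 mesothelial cells. Cells past several lineage gates (559) or none (186) were left out of these groups. With 1 library there is no replicate and no test was run: levels are CPM, a gene's UMIs scaled to the total UMIs of the group, and every interval is a 95% interval for counting error only.

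Small leucine-rich proteoglycans are secreted core proteins built mostly of leucine-rich repeats, which bind collagen fibrils and set how fibrils assemble and space. Decorin and biglycan carry chondroitin or dermatan sulfate chains, asporin of the same class lacks them, and lumican, fibromodulin and PRELP form a class that can carry keratan sulfate or is little glycosylated. Several of them bind TGF-beta family ligands, and soluble biglycan is known as a ligand of Toll-like receptors on macrophages. In the heart they belong to the interstitial matrix, laid down chiefly by fibroblasts.

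Several of these genes lie beside each other (GRCm38, GENCODE M21 annotation). Dcn (ENSMUSG00000019929, chr10:97479609-97518143, + strand, 8 exons) is followed after 46.98 kb by Lum (ENSMUSG00000036446, chr10:97565128-97572703, + strand, 3 exons). Aspn (ENSMUSG00000021388, chr13:49544443-49567565, + strand, 8 exons) and Ogn (ENSMUSG00000021390, chr13:49608046-49624501, + strand, 7 exons) lie 40.5 kb apart, with their relative Omd between them. Prelp (ENSMUSG00000041577, chr1:133910304-133921414, - strand) and Fmod (ENSMUSG00000041559, chr1:134037254-134048277, + strand), each with 3 exons, lie 116 kb apart on opposite strands. Bgn (ENSMUSG00000031375, chrX:73483602-73495933, + strand, 8 exons) and Podn (ENSMUSG00000028600, chr4:108014791-108096445, - strand, 12 exons) stand alone.

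Promoters of 2 neighbouring pairs are printed because their genes changed together or parted between fibroblast subsets. They run from 250 bases before to 50 bases after the annotated start (RefSeq, GRCm38.p6) and are written along the gene's own strand. Capitals mark matches, on either strand, of 4 short motifs: the TATA box core TATAAA, the CCAAT box, the AP-1 type motif TGANTCA and the TEAD type motif GGAATG. A match on the other strand reads as the reverse complement. The first pair is Fmod (chr1:134037004-134037303, + strand) and Prelp (chr1:133921352-133921651, - strand), which were both at least 2-fold higher in fibroblasts with Wif1 than in ungated fibroblasts.
Fmod: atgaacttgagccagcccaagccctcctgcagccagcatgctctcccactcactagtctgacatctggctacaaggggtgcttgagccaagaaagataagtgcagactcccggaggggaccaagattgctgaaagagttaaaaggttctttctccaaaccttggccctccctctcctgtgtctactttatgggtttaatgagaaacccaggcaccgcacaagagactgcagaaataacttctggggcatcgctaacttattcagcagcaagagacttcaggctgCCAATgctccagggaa
Prelp: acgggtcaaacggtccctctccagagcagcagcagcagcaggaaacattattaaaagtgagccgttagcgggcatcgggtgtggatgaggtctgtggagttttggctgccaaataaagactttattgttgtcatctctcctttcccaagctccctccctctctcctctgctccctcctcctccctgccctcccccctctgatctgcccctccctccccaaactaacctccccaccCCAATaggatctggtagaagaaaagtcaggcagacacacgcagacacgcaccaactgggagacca
The second pair is Aspn (chr13:49544193-49544492, + strand) and Ogn (chr13:49607765-49608064, + strand), which were both low in fibroblasts with Wif1 and differed along Pi16.
Aspn: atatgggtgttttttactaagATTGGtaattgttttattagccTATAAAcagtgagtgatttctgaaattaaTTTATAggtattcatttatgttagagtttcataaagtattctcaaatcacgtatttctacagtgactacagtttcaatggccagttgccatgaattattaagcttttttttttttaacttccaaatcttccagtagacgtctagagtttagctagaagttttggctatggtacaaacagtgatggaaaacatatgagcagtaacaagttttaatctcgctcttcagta
Ogn: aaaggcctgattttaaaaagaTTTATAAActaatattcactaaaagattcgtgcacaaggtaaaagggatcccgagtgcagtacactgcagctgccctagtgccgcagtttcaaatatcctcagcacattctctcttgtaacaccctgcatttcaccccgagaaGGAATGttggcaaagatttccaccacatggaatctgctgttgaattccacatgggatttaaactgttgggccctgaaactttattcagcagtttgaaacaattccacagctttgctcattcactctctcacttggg
Fmod and Prelp each held a single match, CCAAT, at 34 bases after the start in Fmod and 15 bases before it in Prelp. Aspn and Ogn both held TATAAA on each strand, from 229 to 178 bases before the start, where the matches overlap in Ogn. Aspn also held the CCAAT box, on the other strand, and Ogn the TEAD type motif. Of 32851 promoters of the same length, 13.6% held the TATA motif, 37.4% the CCAAT box, 7.81% the AP-1 type motif and 14.7% the TEAD type motif on either strand. The matches are a description of the letters and not of factor binding.

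All 8 genes were higher in fibroblasts than in lymphocytes, by 49.1-fold to 96.8-fold. Lymphocytes are not known as a source of these matrix proteins and serve here as the measure of free RNA, transcripts that leak from broken cells into every droplet. Over all genes measured in both groups, 27.4% were at least 2-fold higher and 20.1% at least 2-fold lower in fibroblasts, where 8 members were higher and 0 lower. Dcn, which encodes decorin, stood at 19826 CPM in fibroblasts against 271 CPM in lymphocytes, a 73.3-fold difference (68.0 to 79.1). Bgn (biglycan) stood at 4657 CPM in fibroblasts against 70.6 CPM in lymphocytes (65.9-fold, 56.9 to 76.8), and Aspn (asporin) at 803 CPM against 16.4 CPM (49.1-fold, 36.2 to 68.4). Decorin was thus the leading transcript of the list, a dermatan sulfate proteoglycan of the fibril surface.

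In the lumican class, Lum had 2497 CPM in fibroblasts against 50.3 CPM in lymphocytes (49.7-fold, 41.7 to 59.6), and Prelp 425 CPM against 4.39 CPM (96.8-fold, 54.1 to 194). Fmod (fibromodulin) was sparse, with 843 fibroblast UMIs (21.5 CPM) against 1 lymphocyte UMI, a ratio of 53.9 with an interval of 9.64 to 2130. Ogn, which encodes osteoglycin (mimecan), had 964 CPM in fibroblasts against 14.8 CPM in lymphocytes (65.3-fold, 47.4 to 92.8). Podn (podocan) had 67.3 CPM in fibroblasts against 0.798 CPM from 2 lymphocyte UMIs (84.3-fold, 23.3 to 697). The fibroblast gate held 91.7 to 94.0% of the UMIs of 7 genes and 82.2% of those of Fmod. These shares are of all analysed cells, which include the cells left out of the groups. Of the 1026 Fmod UMIs, mesothelial cells held 23, and endothelium with Npr3, macrophages and lymphocytes held 1 each. The remaining Fmod UMIs outside fibroblasts lay in cells left out of the groups.

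**Figure D1:**
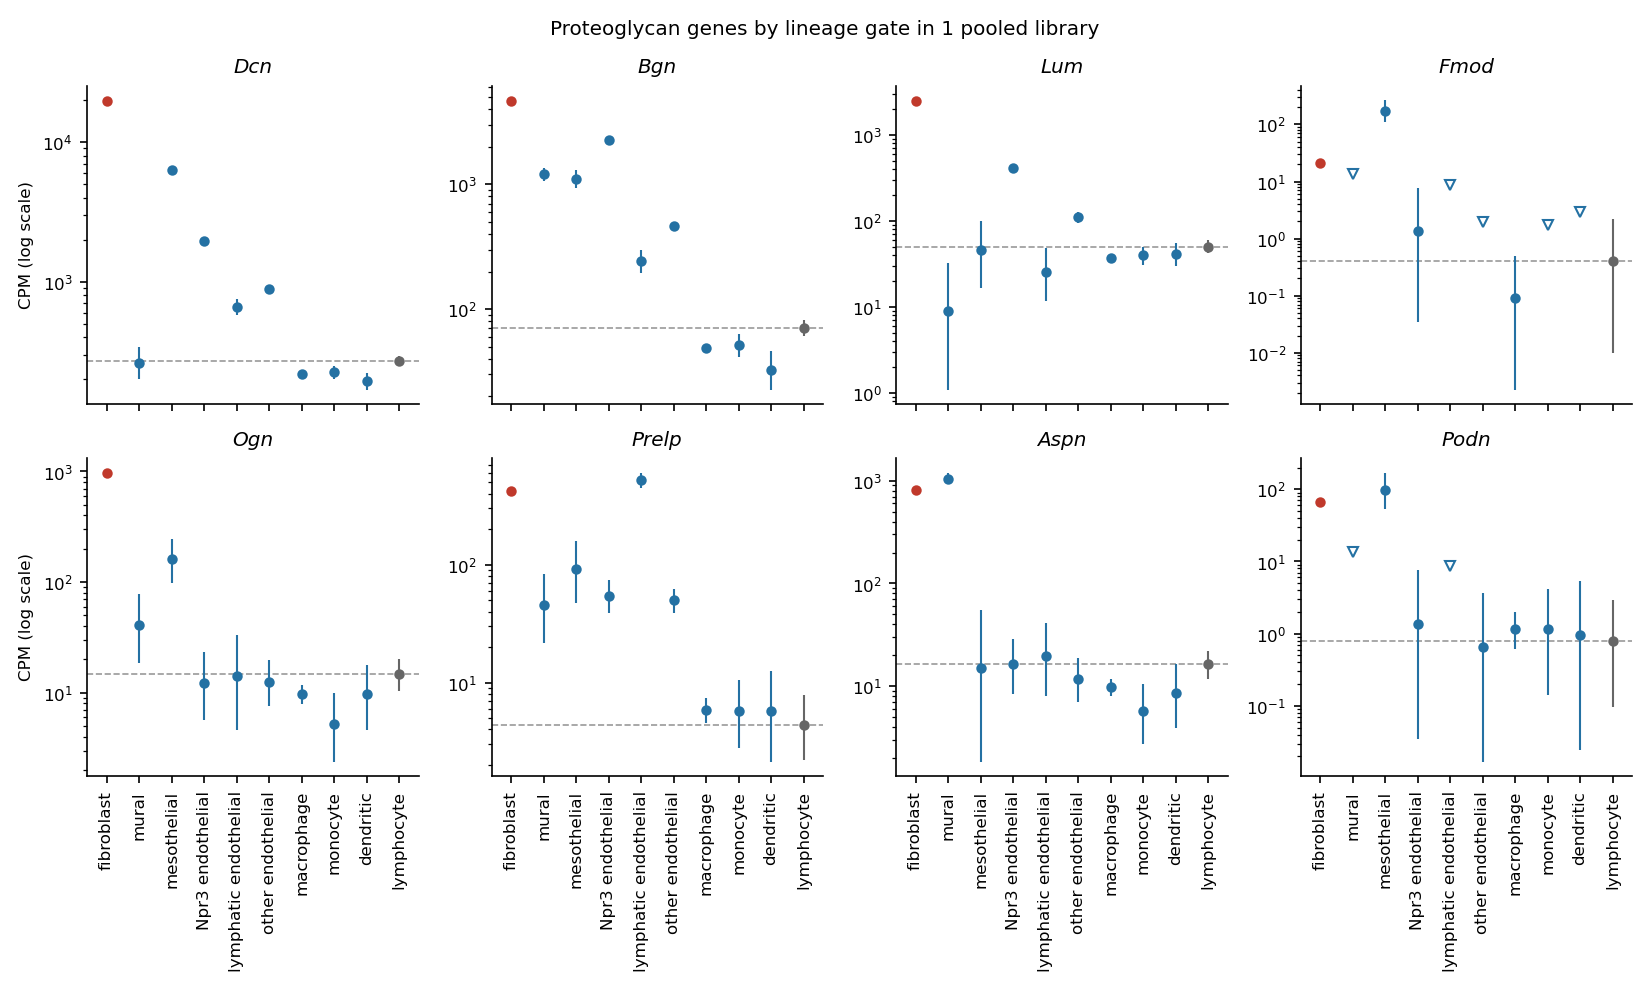
Level of each gene (CPM, log scale) in 10 lineage groups of the pooled library, with 95% Poisson intervals; the dashed line is the lymphocyte level and an open triangle marks 3 counts in a group that had 0 UMIs. All 8 genes stand far above the line in fibroblasts, Prelp also in lymphatic endothelium (520 CPM), Aspn in mural cells (1049 CPM) and Bgn in endothelium with Npr3 (2258 CPM).

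Almost every fibroblast carried decorin, and the sparser genes were found in fewer of the cells. After each cell was thinned to 2500 UMIs, a Dcn UMI was found in 99.96% of fibroblasts, Bgn in 98.7%, Lum in 96.5%, Ogn in 78.2%, Prelp in 59.5%, Aspn in 58.9%, Podn in 16.3% and Fmod in 2.94%. A low mean count alone lowers such a share. The mean per thinned fibroblast was 52.3 UMIs for Dcn, 1.06 for Prelp and 0.196 for Podn. In lymphocytes the thinned shares were 53.3% for Dcn, 18.3% for Bgn, 12.4% for Lum, 3.03% for Ogn, 1.18% for Prelp, 3.87% for Aspn, and 0.168% for both Podn and Fmod. The median depth before thinning was 7616 UMIs in fibroblasts and 3430 UMIs in lymphocytes. The unthinned shares were 100% of fibroblasts and 70.3% of lymphocytes for Dcn, and 5.81% against 0.168% for Fmod. A Dcn UMI in a cell is therefore no sign that the cell expresses it, whereas Prelp, Podn and Fmod had a low background.

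The genes were spread over fibroblasts to different degrees. Of the Dcn UMIs, 20.4% lay in the tenth of fibroblasts with most of them, against 44.5% for Aspn and 51.1% for Podn, while 280 cells held every Fmod UMI. Such shares also rise as a gene gets sparser. The variance over the mean in thinned fibroblasts had another order, 10.5 for Dcn, 4.21 for Aspn, 3.65 for Fmod and 1.25 for Podn. Aspn was absent from 1145 fibroblasts (23.7%) and reached 10 or more UMIs in 1111 others, which held 69.6% of its UMIs. Fmod was the most concentrated: 70 cells with at least 3 UMIs held 70.2% of it, and 45 of the 70 carried Wif1 or Cthrc1 at the level used below. Counted for each gene whatever the others, 41 of the 70 carried Pi16, 29 Cthrc1, 18 Wif1 and 4 C3 at that level. Among all fibroblasts, 72.6% carried Pi16, 3.05% Cthrc1, 1.04% Wif1 and 41.6% C3.

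Outside fibroblasts, particular members stood above background in several groups. In endothelial cells with Npr3, a marker of endocardial-type endothelium, 4 of 6 members with at least 20 UMIs over both groups were at least 2-fold higher than in lymphocytes, against 24.5% of all genes. Biglycan led: 2258 CPM in this endothelium against 70.6 CPM in lymphocytes (32.0-fold, 27.4 to 37.6), found in 95.0% of thinned cells (89.4 to 98.1) against 18.3% of lymphocytes. Bgn thereby exceeded Dcn there, which had 1945 CPM (7.19-fold, 6.56 to 7.89), while Lum had 410 CPM (8.16-fold, 6.61 to 10.1) and Prelp 54.5 CPM (12.4-fold, 6.25 to 26.8). Ogn and Aspn stayed at 0.831 and 0.9997 times the lymphocyte level, so the mixture differed from that of fibroblasts. The summed fibroblast list was 1.54-fold the lymphocyte level in these cells. Without the cells that carried 2 or more UMIs of that list, Bgn was 33.3-fold and Dcn 7.38-fold in the 98 cells left.

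Lymphatic endothelial cells carried Prelp, a proline- and arginine-rich proteoglycan that binds heparan sulfate and collagen, at the level of fibroblasts. Prelp had 520 CPM in lymphatic endothelium (447 to 601) against 4.39 CPM in lymphocytes, a ratio of 119 (64.7 to 242), beside 425 CPM in fibroblasts. It was found in 56 of the 69 cells and in 63.8% of them after thinning (51.3 to 75.0), and no cell held more than 11 of the 183 UMIs. Prelp was 35.1% of all proteoglycan UMIs of the lymphatic cells, against 1.03% in lymphocytes. It was 108-fold over lymphocytes in the 52 lymphatic cells with fewer than 2 fibroblast-list UMIs. In all, 3 of 6 members passed 2-fold in lymphatic cells, against 22.9% of all genes. The others were Dcn (2.44-fold, 2.09 to 2.83) and Bgn (3.42-fold, 2.61 to 4.45), of which 1 cell held 29.7% and 36.5% of the UMIs. The fibroblast list was 2.28-fold over lymphocytes in these cells. In the remaining endothelium 4 of 6 members passed, against 25.8% of all genes: Prelp at 11.3-fold (5.97 to 23.6), Bgn at 6.53-fold (5.53 to 7.75), Dcn at 3.28-fold (2.99 to 3.60) and Lum at 2.18-fold (1.72 to 2.78), where the fibroblast list was 2.49-fold.

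Mural cells, the pericytes and smooth muscle of vessel walls, carried asporin and biglycan without decorin. Aspn had 1049 CPM in mural cells (918 to 1193) against 16.4 CPM in lymphocytes (64.1-fold, 45.8 to 91.7), beside 803 CPM in fibroblasts, and was found in 44 of the 46 cells. Bgn had 1198 CPM (17.0-fold, 14.0 to 20.6). Dcn had 263 CPM, 0.973 times the lymphocyte level (0.731 to 1.27), and Lum 2 UMIs. In all, 4 of 6 members were at least 2-fold higher, against 22.3% of all genes, and 1 (Lum) lower, against 20.1%, but Prelp rested on 10 UMIs of which 1 cell held 8, and Ogn on 9 UMIs of which 1 cell held 5. The fibroblast list was 4.83-fold over lymphocytes in mural cells. In the 20 cells with fewer than 2 UMIs of that list, Aspn was 59.9-fold and Bgn 11.6-fold, and neither Ogn nor Prelp was called.

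The 19 mesothelial cells, from the outer lining of the heart, held 5 of 7 members past 2-fold, against 19.1% of all genes. Dcn had 6312 CPM against 271 CPM in lymphocytes (23.3-fold, 21.1 to 25.9) and Bgn 1105 CPM (15.7-fold, 12.5 to 19.6). Fmod had 23 UMIs in 11 cells, 175 CPM (111 to 263), beside 21.5 CPM in fibroblasts and 1 UMI in lymphocytes. Ogn had 160 CPM (10.8-fold, 6.03 to 19.0) and Prelp 91.5 CPM from 12 UMIs (20.8-fold, 8.42 to 52.1). Podn had 13 UMIs, 99.1 CPM, too few to be called. The fibroblast list was 2.79-fold over lymphocytes in mesothelial cells, and in the 11 cells with fewer than 2 UMIs of it Dcn was 25.2-fold and Bgn 12.9-fold over lymphocytes. There 3 members were called, but the share over all genes was not computed for these 11 cells, so the count has no background. Lum (0.910 times, from 6 UMIs) and Aspn (0.932 times, from 2 UMIs) were not above the lymphocyte level, on few UMIs. Mesothelial cells thus had Dcn above that level and Aspn not, whereas mural cells had Aspn above it and Dcn not.

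No member with at least 20 UMIs reached 2-fold over lymphocytes in macrophages (0 of 6), monocytes (0 of 6) or dendritic cells (0 of 5), where 19.7%, 14.0% and 10.6% of all genes did. Ogn and Aspn in monocytes and Bgn in dendritic cells were at least 2-fold lower, as were 24.3% of all genes in monocytes and 23.8% in dendritic cells. Decorin had 217 CPM in macrophages, 224 CPM in monocytes and 195 CPM in dendritic cells, all below the 271 CPM of lymphocytes. Counted per cell, these are 1.34, 1.23 and 1.49 Dcn UMIs against 1.14 in lymphocytes. The make-up was also close: Dcn was 66.0% of proteoglycan UMIs in macrophages, 67.2% in monocytes and 66.2% in dendritic cells, against 63.2% in lymphocytes and 67.8% in fibroblasts. The share of macrophages with a thinned Dcn UMI, 43.7%, was below the 53.3% of lymphocytes. Whether the Dcn UMIs of macrophages are free RNA was not tested. The lymphocyte classes had 297 CPM (T cells), 220 CPM (B cells) and 254 CPM (NK cells) of Dcn. The 28 neutrophils had 557 CPM of Dcn (2.06-fold, 1.59 to 2.63) from 72 UMIs.

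**Figure D2:**
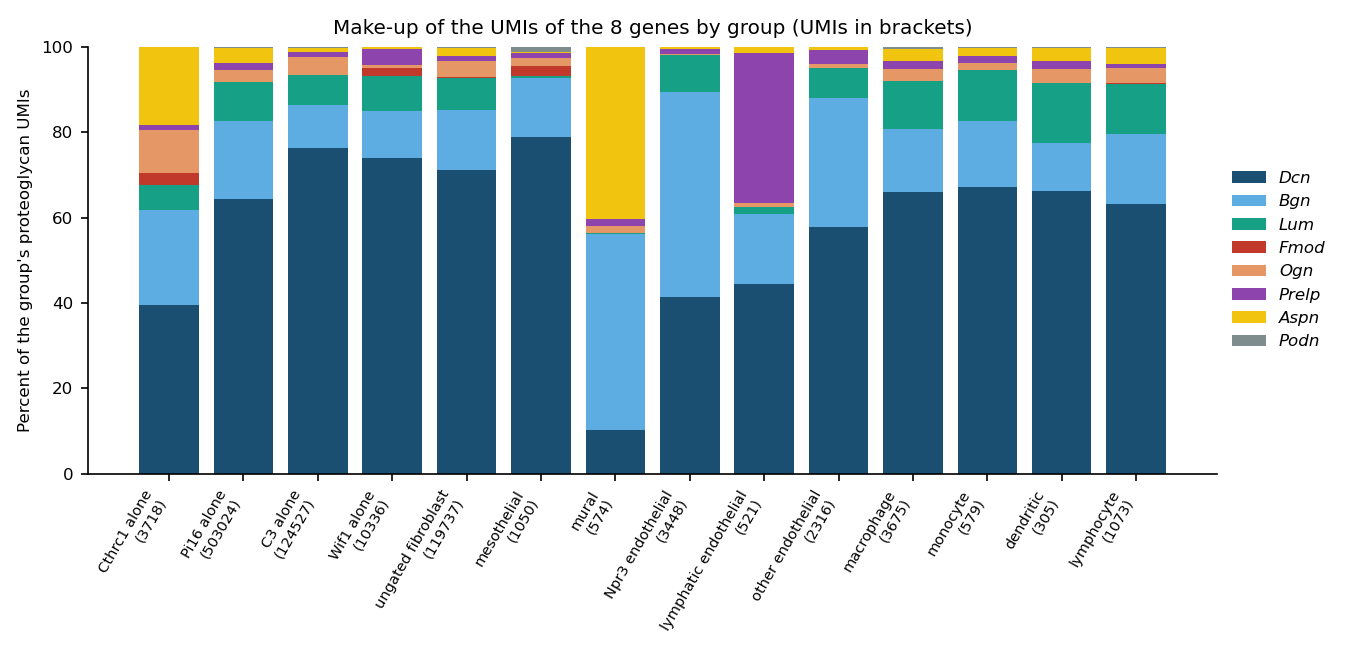
Share of each of the 8 genes in the proteoglycan UMIs of a group (percent), with the number of UMIs in brackets; fibroblast subsets stand left, other lineages right. Macrophage, monocyte, dendritic and lymphocyte bars resemble each other, whereas Aspn makes up 40.2% of the mural bar, Prelp 35.1% of the lymphatic bar and Bgn 48.1% of the bar of endothelium with Npr3.

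Within fibroblasts, 4 genes outside the list were used to gate subsets, each at 3 or more raw UMIs. Cthrc1 marks matrix-producing fibroblasts of injured hearts, Pi16 a progenitor-type adventitial state, C3 a complement-rich state, and Wif1, which encodes a secreted Wnt inhibitor, a small group. Pi16 was broad: 3500 fibroblasts (72.6%) passed it, against 2006 for C3, 147 for Cthrc1 and 50 for Wif1. Cells past exactly 1 gate numbered 17 for Cthrc1, 1967 for Pi16, 586 for C3 and 38 for Wif1, 1536 cells passed several gates and 679 passed none. The last are called ungated and are the comparison for each subset. Of 595 lymphocytes, 0, 2, 1 and 0 passed the Cthrc1, Pi16, C3 and Wif1 gates. Median depth was 9585, 8421, 5860.5 and 6403.5 UMIs in the Cthrc1, Pi16, C3 and Wif1 cells past 1 gate, against 5550 UMIs in ungated cells.

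The gates carried their identity genes to different extents. In Cthrc1 cells, Postn (8.28-fold), Ltbp2 (14.8-fold), Acta2 (7.30-fold) and Col8a1 (2.56-fold) were higher than in ungated cells, but Fap had 2 UMIs and was 0.242 times (0.0291 to 0.885). In Pi16 cells all 5 genes were higher, from 2.55-fold (Mfap5) to 5.17-fold (Sema3c). In C3 cells Cxcl14 (5.40-fold) and C4b (4.91-fold) were at least 2-fold higher and Serping1 (1.82-fold) and Smoc2 (1.35-fold) were not. In Wif1 cells Comp (25.5-fold) and Dkk3 (8.69-fold) were higher, Cilp2 rested on 4 UMIs, and the ratios of Cilp (0.571) and Thbs4 (0.794) had intervals that included 1. The summed transcripts of Cd74 and Lyz2, which mark immune cells, were 194 CPM in Cthrc1, 332 CPM in Pi16, 313 CPM in C3 and 1153 CPM in Wif1 cells, against 788 CPM in ungated cells. Without fibroblasts carrying 10 or more UMIs of these, every count of members in cells past 1 gate alone was the same.

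Fibroblasts with Cthrc1 combined high asporin and fibromodulin with low decorin and podocan. In the 17 cells past this gate alone, 3 of 8 members were at least 2-fold higher and 2 at least 2-fold lower than in ungated cells, against 7.83% of all genes higher and 12.3% lower. Aspn had 4390 CPM in Cthrc1 cells (4065 to 4733) against 512 CPM in ungated cells (491 to 534), 8.57-fold higher (7.85 to 9.35). All 17 cells held Aspn UMIs, but 3 of them held 50.3% of these UMIs. Fmod had 109 UMIs, 706 CPM, against 16.3 CPM (43.3-fold, 31.7 to 59.4), with 33.9% of the UMIs in 1 cell and 64.2% in 3 cells. Ogn had 2428 CPM in Cthrc1 cells against 1078 CPM in ungated cells (2.25-fold, 2.02 to 2.50). Dcn had 9498 CPM in Cthrc1 cells against 20474 CPM in ungated cells, 2.16-fold lower (2.05 to 2.27). The summed fibroblast list was lower too, 1994 CPM in Cthrc1 cells against 4077 CPM in ungated cells. Whether the lower Dcn level is particular to decorin was not tested. Podn had 1 UMI in Cthrc1 cells, 10.1-fold lower with an interval of 1.79 to 400.

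The 147 cells that passed the Cthrc1 gate with or without another gave a larger set, and 127 of them also passed the Pi16 gate. There 2 members were at least 2-fold higher, against 3.44% of all genes, and 1 lower, against 8.11%. Aspn had 1719 CPM in these cells against 512 CPM in ungated cells (3.36-fold, 3.17 to 3.55) and Fmod 157 CPM against 16.3 CPM (9.62-fold, 7.36 to 12.7). Podn had 18.2 CPM against 65.3 CPM, 3.58-fold lower (2.49 to 5.30). Dcn had 11911 CPM against 20474 CPM, 1.72-fold lower (1.69 to 1.74), and the summed fibroblast list 2667 CPM against 4077 CPM. Ogn did not keep its direction: 910 CPM in these cells against 1078 CPM in ungated cells, a ratio of 0.844 (0.797 to 0.893). Bgn (1.44-fold), Lum (0.721 times) and Prelp (0.719 times) moved by less than 2-fold. In both sets the sum of the 8 genes was lower, 24072 CPM in the 17 cells and 22333 CPM in the 147 cells, against 28729 CPM in ungated cells.

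Fibroblasts with Wif1 carried fibromodulin and PRELP and little osteoglycin, asporin or podocan. In the 38 cells past this gate alone, 2 of 8 members were at least 2-fold higher and 3 lower, against 6.51% of all genes higher and 13.5% lower. Prelp had 1502 CPM in Wif1 cells (1356 to 1659) against 383 CPM in ungated cells (364 to 402), 3.92-fold higher (3.503 to 4.39), with UMIs in 36 of the 38 cells. Fmod had 695 CPM in Wif1 cells against 16.3 CPM in ungated cells (42.6-fold, 32.0 to 57.2), from 179 UMIs in 20 cells. The Fmod UMIs were uneven: 3 cells held 49.2% of them, and the median over the 38 cells was 1 UMI. Ogn had 334 CPM in Wif1 cells against 1078 CPM in ungated cells, 3.23-fold lower (2.61 to 4.05). Aspn had 175 CPM against 512 CPM, 2.93-fold lower (2.18 to 4.03), and Podn had 1 UMI, 16.8-fold lower (2.99 to 667). Dcn and Lum were higher by less than 2-fold, 29638 CPM against 20474 CPM for Dcn (1.45-fold, 1.41 to 1.48) and 3345 CPM against 2216 CPM for Lum (1.51-fold, 1.41 to 1.62). The sum of the 8 genes was 40113 CPM in Wif1 cells against 28729 CPM in ungated cells. All 50 cells past the Wif1 gate gave the same 5 calls, against 5.77% of all genes higher and 14.2% lower.

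Asporin was higher in Pi16 cells and lower in C3 cells than in ungated cells where cells past 1 gate alone were compared, and fibromodulin was lower in C3 cells. In Pi16 cells 1 of 8 members was at least 2-fold higher, against 2.84% of all genes, and 0 lower, against 4.46%. Aspn had 1054 CPM in Pi16 cells against 512 CPM in ungated cells (2.06-fold, 1.97 to 2.15). Over all 3500 cells past the gate it was 1.75-fold (1.67 to 1.83), which is under the limit: 0 members were called in either direction there, against 3.74% of all genes higher and 4.89% lower. Bgn was 1.35-fold higher (1.32 to 1.37) and Ogn 1.27-fold lower (1.23 to 1.32). In C3 cells 2 of 8 were at least 2-fold lower, against 3.64% of all genes, and 0 higher, against 1.70%. They were Aspn, at 254 CPM in C3 cells against 512 CPM in ungated cells (2.01-fold, 1.86 to 2.18), and Fmod, from 25 UMIs (2.42-fold, 1.51 to 4.00). Podn (1.64-fold, 1.40 to 1.92), Ogn (1.33-fold, 1.28 to 1.38) and Dcn (1.25-fold, 1.24 to 1.26) were higher in C3 cells. Over all 2006 cells past the C3 gate, of which 1417 also passed the Pi16 gate, Aspn was 1.02-fold (0.969 to 1.07). There 1 member, Fmod, was lower (2.85-fold, 2.06 to 3.95), against 4.38% of all genes, and 0 higher, against 2.76%.

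**Figure D3:**
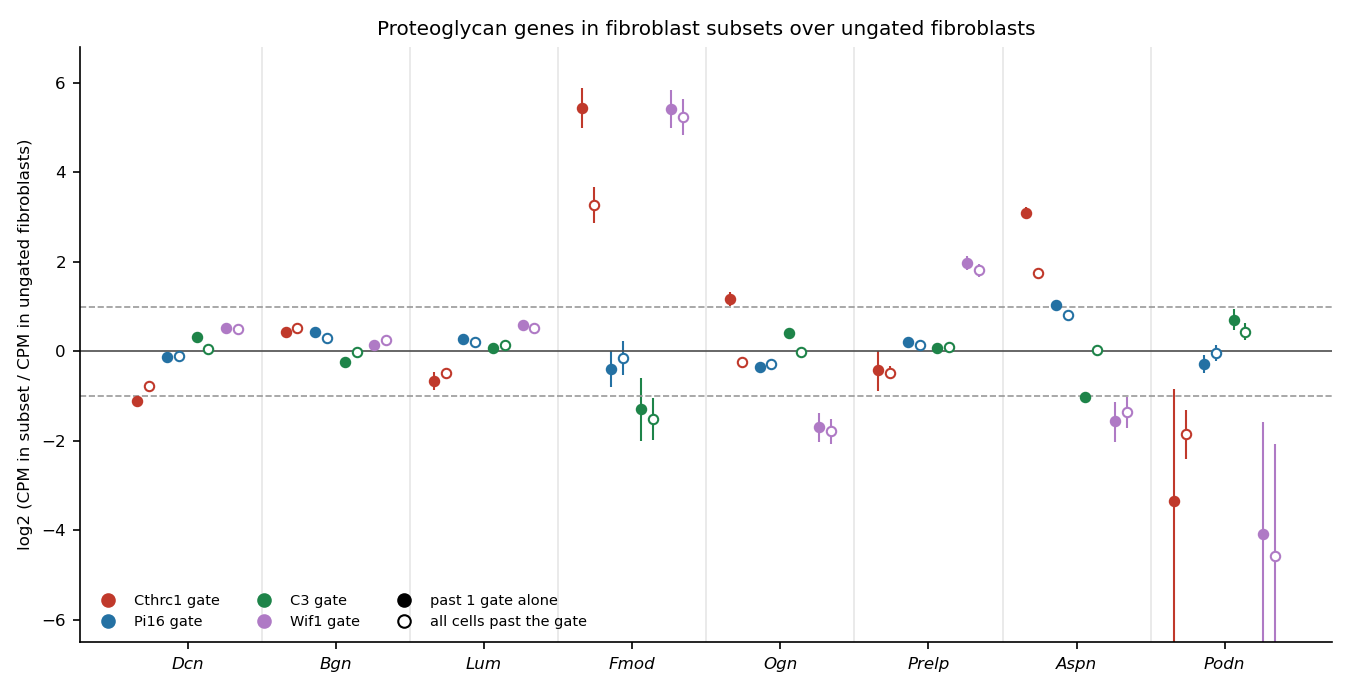
Ratio of each gene in a fibroblast subset to ungated fibroblasts (log2 of CPM over CPM, with 95% intervals); filled points are cells past 1 gate alone, open points all cells past the gate, and dashed lines mark 2-fold. Fmod is high in Cthrc1 and Wif1 cells, Prelp in Wif1 cells and Aspn in Cthrc1 cells, while Dcn, Bgn and Lum lie near or inside the dashed lines; the long Podn intervals run below the axis.

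Fibroblasts were also binned by the UMIs of 1 gate gene, whatever the other gates, and most but not all of these differences appeared in steps. Along Cthrc1, from 0 to 1 to 2, 3 to 9 and 10 or more UMIs, Aspn was 741, 1066, 1426 and 2086 CPM and Dcn 20356, 17661, 13172 and 10331 CPM. Fmod was 12.3, 60.8, 98.4 and 230 CPM and Podn 69.97, 64.2, 22.9 and 12.5 CPM over these bins of 4457, 219, 85 and 62 cells. Asporin and decorin thus moved in opposite directions over every step, whereas Ogn had no such order, at 972, 872, 793 and 1056 CPM. Median depth was 7480, 9186, 11011 and 12454 UMIs in the same bins, and its part in these steps was not tested.

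Along Pi16, Aspn was 372, 531, 806 and 947 CPM and Bgn 3606, 3870, 4736 and 4995 CPM, whereas Ogn was 1343, 1147, 964 and 849 CPM. Neighbours on chromosome 13, Aspn and Ogn therefore moved apart along this gene. Dcn was 24291, 21606, 19623 and 18667 CPM and Fmod 66.4, 29.4, 20.8 and 11.3 CPM. Median depth was 5399, 6215, 7431.5 and 8947 UMIs in the Pi16 bins.

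Along C3, Podn was 47.9, 61.1, 76.8 and 104 CPM and Ogn 864, 931, 1004 and 1167 CPM, while Aspn was 1072, 863, 625 and 385 CPM and Fmod 39.3, 19.7, 6.48 and 4.72 CPM. Median depth in the C3 bins was 7886, 7620, 7059 and 7670 UMIs, with no steady order. Along Wif1, Prelp was 414, 715, 1392 and 1304 CPM and Fmod 15.3, 109, 628 and 599 CPM in bins of 4739, 34, 26 and 24 cells, so both were slightly lower in the last bin than in the one before it.

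**Figure D4:**
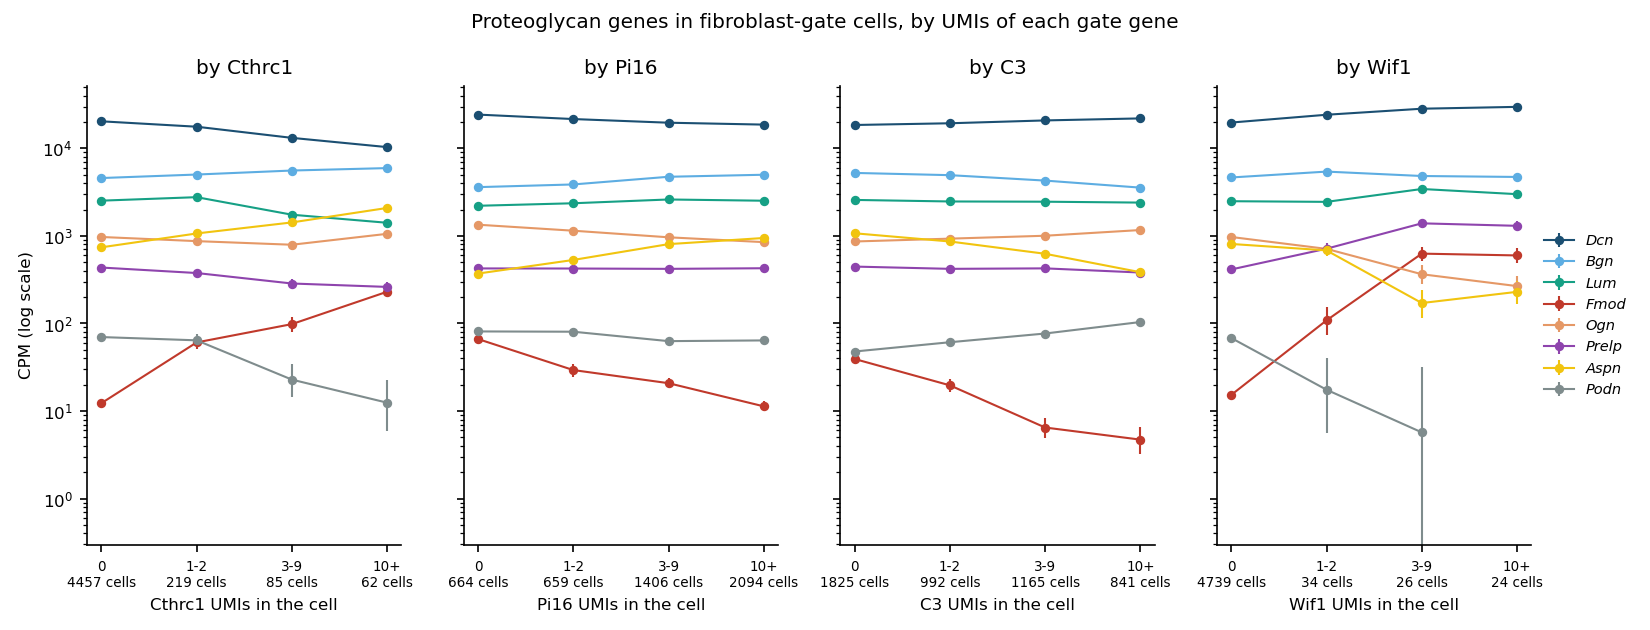
Level of each gene (CPM, log scale, 95% Poisson intervals) in fibroblasts binned by the UMIs of Cthrc1, Pi16, C3 or Wif1, with the number of cells under each bin. Aspn climbs along Cthrc1 and Pi16 and declines along C3, Podn climbs along C3 (47.9 to 104 CPM) and declines along Cthrc1, and Prelp and Fmod climb along Wif1 up to the bin of 3 to 9 UMIs; Podn had 0 UMIs in the last Wif1 bin and is not drawn there.

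Across single fibroblasts, members went with different genes outside the list. Pearson correlations of log counts, taken over the 4823 fibroblasts thinned to 2500 UMIs and 7695 genes with at least 500 UMIs, are a description, since the cells share 1 library and 1 pool of free RNA. Bgn was nearest to Igfbp7 (r = 0.58), Mfap4 (0.44) and Sparc (0.41). Dcn was nearest to Gsn, the actin-severing gelsolin (0.45), Itm2b (0.39) and Serping1, the C1 inhibitor (0.38). Aspn was nearest to Postn, the matricellular periostin (0.43), Sparc (0.39) and Fstl1 (0.37), and Fmod to Ecrg4 (0.38), Comp (0.32) and Wif1 (0.32). Lum was nearest to a fellow member, Dcn (0.31), followed by Igfbp7 (0.27) and Mgp (0.27). Ogn was nearest to Dpep1 (0.33), Gpx3 (0.26) and Serping1 (0.25). The highest values of Prelp (Smoc2, 0.16; Wif1, 0.13; Pcolce, 0.12) and Podn (Dpep1, 0.17; Serping1, 0.17; Fbln1, 0.16) were weak. Decorin and biglycan, close relatives in sequence class, had r = 0.00, and Dcn and Aspn had -0.13.

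The enzymes, partners and receptors of these proteoglycans were counted as whole lists. Of 10 further family genes, 8 had at least 20 UMIs over both groups; 5 were at least 2-fold higher in fibroblasts than in lymphocytes and 1 lower, against 27.4% and 20.1% of all genes. Ecm2 had 176 CPM in fibroblasts against 3.59 CPM in lymphocytes (48.9-fold, 25.8 to 107), and Omd (osteomodulin) 34.9 CPM against 0.798 CPM from 2 UMIs (43.7-fold, 12.1 to 361). Podnl1, named after its values were seen, was the gene that was lower, with 1 UMI in fibroblasts against 44 UMIs in lymphocytes, and Kera (keratocan) had 0 UMIs in both. Of 27 measured genes that build or sulfate glycosaminoglycan chains, 16 were higher in fibroblasts and 3 lower, with a list median of 1.39 in log2 ratio against 0.05 over all genes. Chpf, a chondroitin polymerizing factor, had 120 CPM in fibroblasts against 9.98 CPM in lymphocytes (12.1-fold, 8.15 to 18.6), while B4galt1 had 97.5 CPM against 75.8 CPM.

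Of 18 matrix partners, 17 were higher in fibroblasts and Tgfb1 was lower (0.343 times, 0.316 to 0.372; named after its values were seen). Col3a1 had 5059 CPM in fibroblasts against 97.8 CPM in lymphocytes and Col1a2 2895 CPM against 36.3 CPM. Of 10 measured receptors, 4 were higher and 1 lower, near the 27.4% and 20.1% of all genes, with a list median of 0.46 in log2 ratio. Lrp1, an endocytic receptor that takes up decorin, had 575 CPM in fibroblasts against 13.97 CPM in lymphocytes (41.2-fold, 29.6 to 59.2), and Igf1r had 61.9 CPM against 13.2 CPM. Of 8 measured proteases that can cut the core proteins, 7 were higher, with Mmp2 at 863 CPM in fibroblasts against 16.8 CPM in lymphocytes and Adamts5, an aggrecanase, at 574 CPM against 7.58 CPM. Gzmb, a lymphocyte protease that cleaves decorin and biglycan, was the 1 lower gene, at 1.02 CPM in fibroblasts against 441 CPM in lymphocytes.

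Among subsets, matrix partners went with Cthrc1 and away from Wif1. In the 17 Cthrc1 cells, 12 of 18 were at least 2-fold higher than in ungated cells, against 7.83% of all genes, and 0 lower, against 12.3%, with a median log2 ratio of 1.55 against 0.04 over all genes, and 11 were higher in the 147 cells, against 3.44% of all genes. Ccn4 (16.7-fold, 8.76 to 31.2) and Col12a1 (15.0-fold, 9.26 to 23.8) had the largest ratios. In the 38 Wif1 cells 1 of 18 was higher, against 6.51% of all genes, and 7 lower, against 13.5%, with a median of -0.63 against -0.10 over all genes. Proteases were lower in the 17 Cthrc1 cells for 3 of 7 measured genes, against 12.3% of all genes, and higher for 0, against 7.83%. The median log2 ratio of the proteases was -0.32. Adamts5 had 64.7 CPM in Cthrc1 cells against 464 CPM in ungated cells (7.16-fold lower), and Mmp3 had 0 UMIs against 107 CPM, at least 5.50-fold lower with 3 counts as the floor of the group. Mmp3 was 2.04-fold higher in Wif1 cells (1.51 to 2.69), the largest protease ratio of any subset past 1 gate. In Pi16 cells 0 of 18 matrix partners passed in either direction, against 2.84% of all genes higher and 4.46% lower. In C3 cells 2 of 18 were lower, against 3.64% of all genes, and 0 higher, against 1.70%.

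Annotation limits bear on 4 of the genes. Ogn and Aspn lie inside Cenpp on the opposite strand (126 UMIs in fibroblasts), Prelp overlaps the antisense gene Gm15851 (5 UMIs), and Podn overlaps Scp2 on its own strand (4628 UMIs). How the counting treated overlaps and strand is not given in the sources used here, so the values of these 4 genes are uncertain to that extent.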

How the data were processed

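The deposited file is a matrix of raw UMI counts per gene and cell, which the authors made from 1 pooled gene expression library; STARsolo, Scanpy and mm10 are named, without versions, in the submitters' processing notes. The rule that called barcodes as cells and the treatment of strand are not given in the sources used here. The hashtag library was not analysed here. The members and all lists were chosen with earlier results of these data known.

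Python 3.11.15 with scanpy 1.11.5, numpy 2.4.6, scipy 1.17.1 and pandas 2.3.3 was used. Scrublet called 357 doublets (3.81%), which were left out. Cells were assigned to a lineage by summed raw UMIs of marker lists that hold no member, with minimums of 8 UMIs for fibroblasts, 5 for endothelial, mesothelial and T, B or NK cells, 20 for mural cells and 10 for macrophages, neutrophils and monocytes. These minimums were set after marker values had been seen. Cygb was left out of the fibroblast score because mural cells carry it. Monocytes and dendritic cells (5) were taken from cells past no other gate. Fibroblast subsets needed 3 UMIs of the gate gene.

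UMIs were summed per group and given as CPM with exact Poisson intervals, ratios with exact binomial intervals and shares with Clopper-Pearson intervals, which cover counting error only. The CPM values were not divided by length, since a 3′ UMI stands for 1 transcript end. A gene was called where its ratio was at least 2 with at least 20 UMIs over both groups; a count of 0 was set at a floor of 3 counts per group. The rule was run on simulated counts with known folds and counting error only, so spread between cells was not covered. The named genes are the 8 members, up to 4 examples per related list (most UMIs in fibroblasts, or the largest ratio in a subset) and the 3 genes nearest to each member. Gene positions come from GENCODE M21, in which 52029 of 56953 feature IDs were found; RefSeq held a promoter for 6 members, not for Dcn and Lum.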

Additional observations from a re-analysis of the deposited data

How the results depend on the processing

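Of 192 recomputed counts of members past 2-fold, 173 stayed within 1.5 times their value. The exceptions among fibroblast subsets were members 2-fold lower in Cthrc1 cells, 1 in place of 2 with UMIs per cell, with cells past several gates kept, with gates on thinned counts and against all cells not past the gate. Members lower in C3 cells were 0 in place of 2 with a lineage minimum 2 UMIs higher, and 1 with UMIs per cell, a gate minimum of 2, several gates kept or all other cells as comparison. Members higher in Pi16 cells were 0 in place of 1 with a gate minimum of 5 or 10, several gates kept, thinned gates or all other cells as comparison; 1 member was lower in place of 0 with a minimum of 10, thinned gates or all other cells. Without cells carrying fibroblast transcripts, members higher were 2 in place of 4 in mural cells and 3 in place of 5 in mesothelial cells. The cells left numbered 20 and 11, and the share of all genes past 2-fold was not computed for them. In the mural cells left, Prelp was 2.31-fold over lymphocytes. The part of fewer UMIs in these changes was not tested. Of 997 recomputed ratios, 3 turned: Ogn in Cthrc1 cells (log2 1.17) was -0.24 with several gates kept and -0.088 against all other cells, and Aspn in C3 cells (log2 -1.01) was 0.024 with several gates kept. The cause was not tested. Gate minimum 10, the comparison with all other cells, and the removal of cells with immune or fibroblast transcripts were added after seeing the data. Subtracting lymphocyte UMIs leaves no lymphocyte level and gave no lineage ratio. Cthrc1 and Wif1 subsets past 1 gate rest on 17 and 38 cells, and Podn there on 1 UMI each. No paired analysis was possible because there is 1 library and no cell is tied to a mouse.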

Other observations

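Chad, which encodes chondroadherin, another leucine-rich repeat protein of the cartilage matrix, had 57 UMIs in fibroblasts, all in 6 cells, and 5 of these passed the Wif1 gate. A single cell held 41 of the 57 UMIs. The 6 cells had 7 to 31 Fmod UMIs and 13 to 37 Prelp UMIs each. The gene and the cells were singled out after their values had been seen.

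Macrophages had 0 of 6 measured members at least 2-fold over the lymphocyte level, while they carried receptors of the list: 8 of 10 measured receptor genes were at least 2-fold higher in macrophages than in lymphocytes, among them Tlr2 at 236 CPM against 13.6 CPM (17.4-fold, 12.4 to 25.1) and Tlr4 at 20.5 CPM against 3.59 CPM (5.71-fold, 2.96 to 12.7). Both encode receptors known to bind soluble biglycan, and both were named after their values had been seen. Over all genes, 19.7% were at least 2-fold higher in macrophages. The receptor genes were not particular to macrophages: 8 of 9 measured were at least 2-fold higher in monocytes and 4 of 6 in dendritic cells. Over all genes these shares were 14.0% and 10.6%. The 8 receptor genes of macrophages include Kdr, from 21 macrophage UMIs and 2 lymphocyte UMIs (2.36-fold, 0.576 to 20.7), an interval that includes 1. Prelp had 5.82 CPM in macrophages against 4.39 CPM in lymphocytes, and Podn 1.16 CPM against 0.798 CPM, both with intervals of the ratio that include 1.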
